A study of Mus musculus with 6 samples.

Results

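The 40 genes described here encode voltage-gated and calcium-gated potassium channels of the mouse and the proteins that bind them. They were chosen by symbol, with earlier results of these data known. All 40 were found among the 56748 genes of the table, with no threshold on their values. Polyadenylated RNA was sequenced from homogenised mouse brain. The mice had been implanted with MCF10DCIS CD63-NLuc cells, human breast cells of a ductal carcinoma in situ line that carry the vesicle protein CD63 joined to a luciferase. One group was taken 3 days and the other 28 days after implantation, with 3 libraries each. Strain, sex, age and the site of implantation are not given in the sources used here. The labels name replicates without saying whether each was another animal. Each title carries a different number, but what it stands for is not given. The p-values thus speak only of the spread among these samples, some of which may be technical. Both groups carried the implanted cells and brain of mice without them was not analysed here, so time after implantation and anything else that differed between the dates cannot be told apart.

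Potassium channels let potassium leave the cell and thereby return the membrane toward rest. Voltage-gated (Kv) channels open on depolarisation and shape the width and rate of action potentials, while BK and SK channels open when internal calcium rises and help set the pause after a spike. Pore-forming subunits meet as tetramers around a central pore, and cytosolic proteins such as the Kv beta subunits and the KChIP proteins set how many channels reach the membrane and how fast they inactivate. Neurons of the cerebellum, striatum and cortex are known to express different sets of these genes.

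Of the 40, 33 encode pore-forming subunits and 7 encode auxiliary proteins. The letters that separate them are those of the selectivity filter, the short stretch of the pore that passes potassium and refuses sodium. In the longest open reading frame of each gene in the GENCODE M21 transcripts, the filter stretch was found once in each of the 33 and in none of the 7. The differences between days were not compared by these letters. The stretches of 8 members named in the results below are shown as examples, 5′ to 3′ on the coding strand, with the 9 central bases of the filter in capitals.
Kcnh5: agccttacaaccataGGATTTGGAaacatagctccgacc
Kcnh7: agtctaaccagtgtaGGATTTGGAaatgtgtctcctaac
Kcna2: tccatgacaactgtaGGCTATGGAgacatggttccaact
Kcnb2: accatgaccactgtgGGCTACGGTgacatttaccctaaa
Kcnf1: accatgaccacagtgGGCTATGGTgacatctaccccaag
Kcnq3: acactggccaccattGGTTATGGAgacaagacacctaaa
Kcnma1: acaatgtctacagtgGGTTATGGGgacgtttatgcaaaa
Kcnt2: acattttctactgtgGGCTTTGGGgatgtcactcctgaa
In 24 pore-forming genes the central bases had the form GGNTANGGN, and in 9 the form GGNTTNGGN. The 9 were the 7 Kcnh genes among the 40, which form EAG, ERG and ELK channels, and both Kcnt genes, which encode sodium-activated channels. That difference of a single base in the middle codon is the known exchange of tyrosine for phenylalanine between the filters of these channels. Kcns2, Kcnf1 and Kcnv1 have the common form although their proteins are electrically silent alone and work only in company with Kv2 subunits.

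Depth ran from 11958137 to 16059196 reads per library, and values are the authors' normalized counts. The cell type in the labels, ductal carcinoma in situ, is that of the implanted cells, while the table lists mouse genes of the brain. All 5 neuronal markers were present in every library, with a summed level of 76336 to 82052 normalized counts at day 3 and 82551 to 85195 at day 28. The libraries differed in the brain regions they held. The 9 cerebellar granule cell markers summed to 22716, 20787 and 2613 at day 3 (replicates 1 to 3) and to 2882, 3130 and 5163 at day 28. The day 3 replicates 1 and 2 were thus rich in cerebellar transcripts, and day 3 replicate 3 was not. The granule cell receptor gene Gabra6 had 0 reads in day 3 replicate 3 and in day 28 replicates 1 and 2. Day 3 replicate 2 also held 65795 reads of the liver gene Alb, against 23 to 1276 in the other libraries.

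Kcnh5 was the only gene of the 40 that passed the test, and it rose 2.60-fold at day 28. Most of the others leaned the same way without passing the test. Of the 40, 25 had a positive log2 difference (62.5%, against 48.6% of the 16162 genes tested), and the median difference of the 40 was 0.28 against -0.01 over all genes tested. All 40 passed the filter on low values. The single call, by limma with Benjamini-Hochberg adjustment over all genes tested, stands beside 0.0681% of all genes called higher at day 28 and 0.124% called lower, and 0 of the 40 were called lower. At an unadjusted p under 0.05 there were 17 of the 40 higher (42.5%, against 6.98% of all genes tested) and 4 lower (against 6.39%). In 16 of the 40 every day 28 library lay above every day 3 library, against 9.71% of all genes tested. In 3 of the 40 every day 28 library lay below, against 9.21%. As the list was chosen with earlier results of these data known, these shares are descriptions only. The lean depended on the genes listed: 19 further subunits and partners that were tested had a median of -0.09, with 9 positive and 10 negative. In bulk tissue, fewer cells of a type and less RNA per cell cannot be told apart.

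**Figure D1:**
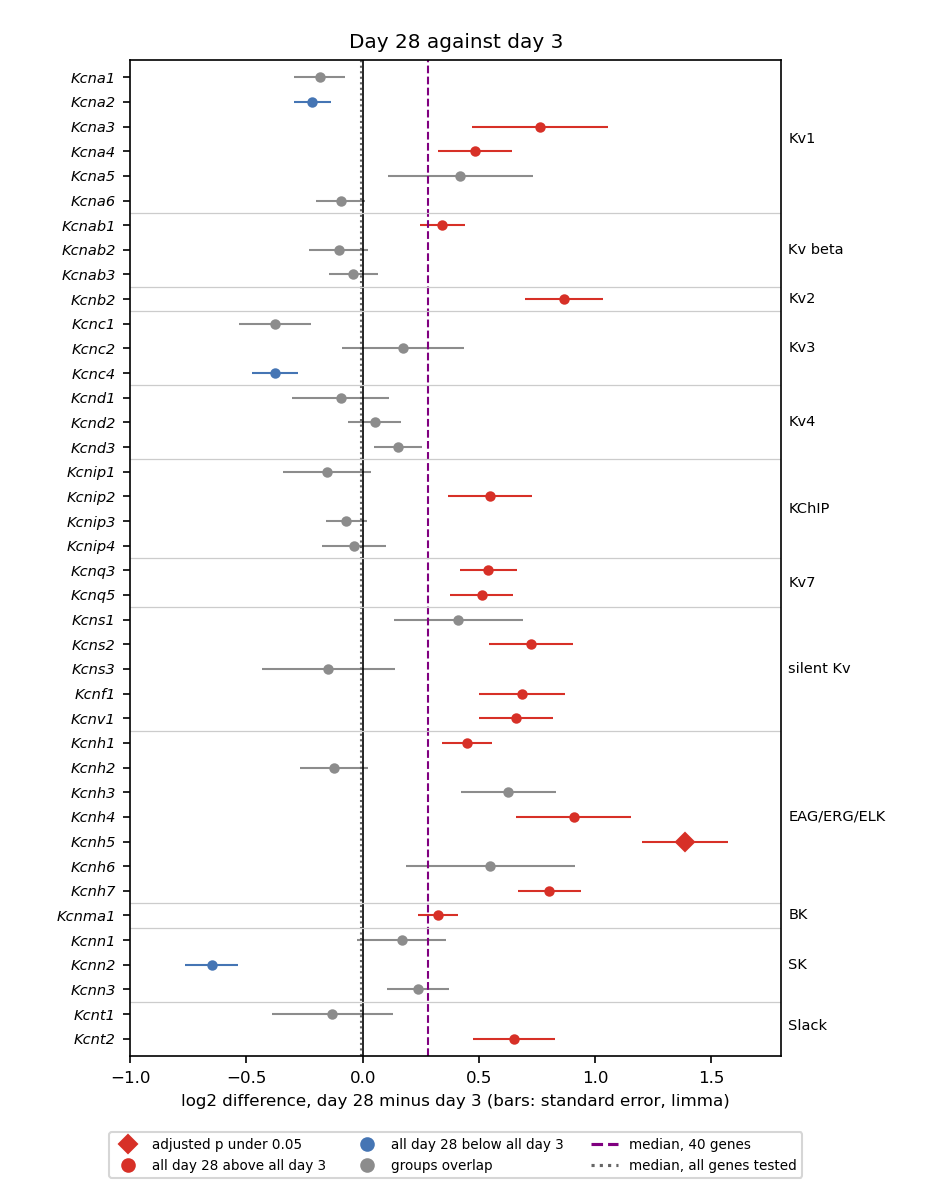
Log2 difference of each gene between day 28 and day 3 (x axis, positive where day 28 is higher) with its standard error from limma, by subfamily. Kcnh5 lies farthest to the right at 1.39, Kcnn2 farthest to the left at -0.65, and 21 of the 40 genes have overlapping groups.

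Pore-forming and auxiliary genes had different medians. The 33 pore-forming genes had a median log2 difference of 0.41, with 23 positive, and the 7 auxiliary genes a median of -0.04, with 2 positive. Of all genes tested 48.6% were positive. These medians are descriptions, and the difference between them was not tested.

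The EAG, ERG and ELK channels, encoded by the Kcnh genes, held the single call. EAG channels open slowly at voltages near rest, ERG channels recover fast from inactivation and hold the membrane near rest, and ELK channels are found mainly in forebrain neurons. Kcnh5, an EAG subunit (identifier ENSMUSG00000034402), had 112, 150.1 and 169 normalized counts at day 3 and 390.3, 395 and 334 at day 28. The lowest day 28 library was nearly as far above the highest day 3 library as the latter was above 0. The mean rose from 144 ± 29.2 to 373 ± 34.1 (SD, n = 3 in each group). Its log2 difference was 1.39 (SE 0.18, adjusted p = 0.0345).

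The call was lost in 4 of the 6 fits that left out a library. Without 1 library at a time the log2 difference of Kcnh5 ran from 1.22 to 1.51, positive in every one of the 6. It stayed under the threshold without day 3 replicate 1 (limma adjusted p = 0.0445) and without day 3 replicate 3 (adjusted p = 0.00901), and missed it without day 3 replicate 2 (adjusted p = 0.133) or without day 28 replicate 1, 2 or 3 (adjusted p = 0.253, 0.246 and 0.158). With the granule cell marker level as a covariate it was 1.17 (limma adjusted p = 0.248), and against day 3 replicate 3 alone, the library poor in cerebellum, it was 1.13 (limma adjusted p = 0.216, with the lone library taken to vary like the others). With voom on the recovered reads it was 1.41 (adjusted p = 0.0535).

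Kcnh7, an ERG subunit, came closest after Kcnh5 to a call upward. It had 1179.7, 1059 and 1558 normalized counts at day 3 and 2114, 2169.8 and 2254 at day 28. Both groups stood apart, with day 3 replicate 3 the highest of its group, at a log2 difference of 0.80 (SE 0.14, adjusted p = 0.071). Without day 3 replicate 3, which left day 3 with the cerebellum-rich replicates 1 and 2, the gene was called (log2 0.96, limma adjusted p = 0.00608). Against day 3 replicate 3 alone it was 0.48 (limma adjusted p = 0.234), and with the granule cell covariate 0.63 (limma adjusted p = 0.413). A stretch of 696 exonic bases, 4.6% of the total, overlaps Gca on the opposite strand, and whether the counting used the strand of these stranded libraries is not given in the sources used here.

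Kcnh1, the other EAG subunit, had 1010.3, 873 and 1032 normalized counts at day 3 and 1419.6, 1364 and 1198 at day 28. Its groups did not overlap, at a log2 difference of 0.45 (SE 0.11, adjusted p = 0.138). Kcnh4, an ELK subunit, had 131, 132 and 207 normalized counts at day 3 and 378, 225 and 279 at day 28. The highest was day 28 replicate 1, and day 28 replicate 2 lay just above day 3 replicate 3, at a log2 difference of 0.91 (SE 0.25, adjusted p = 0.169). Against day 3 replicate 3 alone it was 0.47. The other ELK gene of the 40, Kcnh3, had a like size of difference (log2 0.63, adjusted p = 0.236) with groups that overlapped, since day 3 replicate 3 at 2028 lay above day 28 replicate 3 at 1938. The ERG genes Kcnh2 (log2 -0.12) and Kcnh6 (log2 0.55) also had overlapping groups, and Kcnh6 was the lowest of the 40 with a mean of 37.5 ± 5.51 at day 3 and 58.0 ± 24.5 at day 28. As a subfamily the 7 Kcnh genes had a median log2 difference of 0.63, with 6 positive and 4 above without overlap. Over all genes tested 48.6% were positive and 9.71% lay above without overlap.

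**Figure D2:**
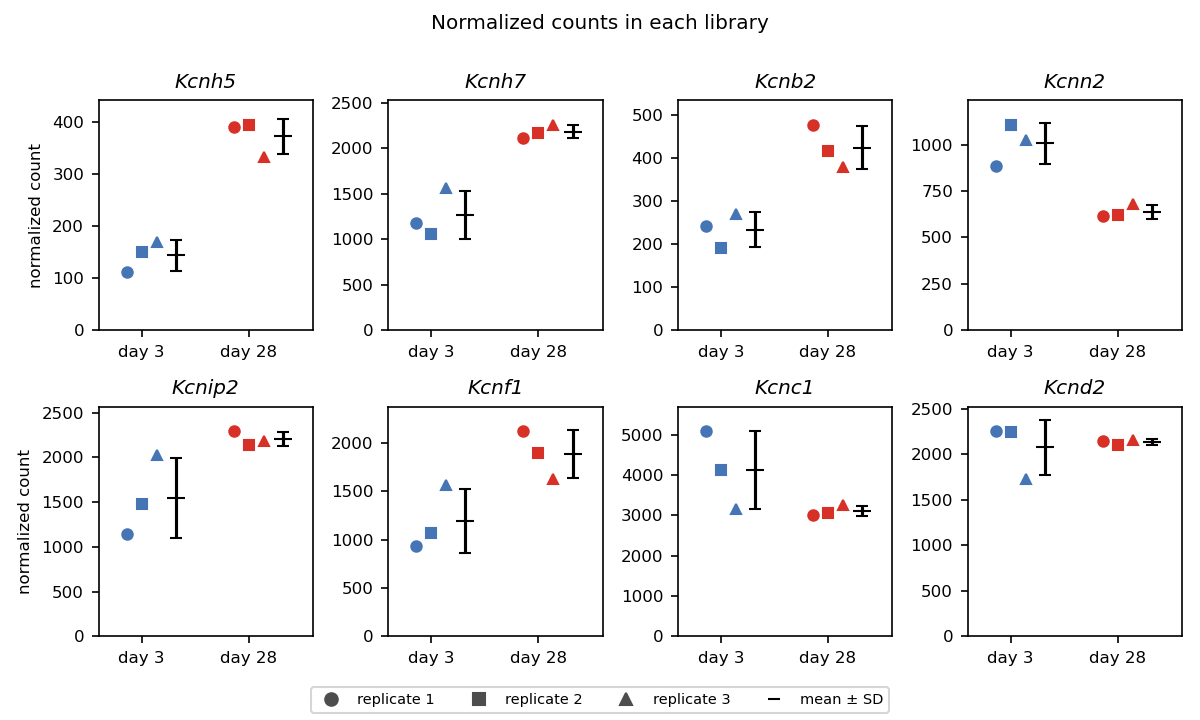
Normalized counts (y axis, from 0) of 8 genes in each library, with symbols for the replicate and the mean ± SD of 3 libraries beside them. Kcnh5, Kcnh7, Kcnb2 and Kcnn2 have separate groups, day 3 replicate 3 lies close to day 28 for Kcnip2 and Kcnf1, and Kcnd2 has nearly equal means.

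The promoters of Kcnh5 and Kcnh7 are shown because these genes had the 2 smallest p-values among those higher at day 28. Each window runs from 250 bases before to 50 bases after the RefSeq start on GRCm38.p6, 5′ to 3′ on the gene's own strand, with motif matches in capitals. Kcnh5 lies on the minus strand at chr12:75177283-75177582 and Kcnh7 on the minus strand at chr2:63184238-63184537.
Kcnh5 promoter: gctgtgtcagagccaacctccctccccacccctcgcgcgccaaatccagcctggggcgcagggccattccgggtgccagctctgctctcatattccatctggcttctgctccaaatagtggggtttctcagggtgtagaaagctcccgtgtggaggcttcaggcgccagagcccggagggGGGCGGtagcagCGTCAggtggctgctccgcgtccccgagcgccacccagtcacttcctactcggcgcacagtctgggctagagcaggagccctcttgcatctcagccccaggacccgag
Kcnh7 promoter: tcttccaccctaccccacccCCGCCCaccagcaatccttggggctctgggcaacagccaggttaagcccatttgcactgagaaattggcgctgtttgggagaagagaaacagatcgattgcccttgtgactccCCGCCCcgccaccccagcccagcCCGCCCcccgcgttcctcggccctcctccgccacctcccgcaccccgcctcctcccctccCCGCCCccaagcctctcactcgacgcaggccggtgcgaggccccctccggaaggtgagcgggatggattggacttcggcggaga
The motifs searched on both strands were the GC box GGGCGG, the cyclic AMP response element TGACGTCA, its short form TGACG, the TATA box TATAAA, the AP-1 site TGANTCA and the short glucocorticoid element AGAACA. The short form lies within the full response element, so these overlap. The Kcnh5 window held 1 GC box and 1 short response element, and the Kcnh7 window held 4 GC boxes. RefSeq windows were found for 30 of the 40 genes, 45 windows in all. GC boxes were in 24 of the 45 (35.7% of all 32851 windows), the short response element in 8 (20.8% of all), the full one in 0 (1.8% of all), the TATA box in 1 (13.6% of all), the AP-1 site in 2 (7.8% of all) and the short glucocorticoid element in 6 (19.0% of all). Several windows belong to the same gene, and a match is a run of letters, not a shown site.

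The Kv2 gene and 4 of the 5 genes of silent subunits, which assemble with Kv2 channels, had positive differences (48.6% of all genes tested did). Kv2 channels carry much of the slow delayed rectifier current of cell bodies, and the silent subunits alter its voltage range. Kcnb2 had 241, 190.2 and 269 normalized counts at day 3 and 476, 417 and 378 at day 28. Every day 28 library lay above 269, the highest at day 3, and the log2 difference was 0.87 (SE 0.17, adjusted p = 0.0877). It was called without day 3 replicate 3 (log2 0.98, limma adjusted p = 0.0255), and against day 3 replicate 3 alone the difference was 0.65 (limma adjusted p = 0.309).

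Among the silent subunits Kcns2 had 270.2, 295 and 422 normalized counts at day 3 and 473, 553 and 584 at day 28, with a log2 difference of 0.72 (SE 0.18, adjusted p = 0.147). Kcnf1 had 938, 1066 and 1561 normalized counts at day 3 and 2118, 1896 and 1624 at day 28, with a log2 difference of 0.69 (SE 0.18, adjusted p = 0.164). Kcnv1 had 554, 616 and 845 normalized counts at day 3 and 946, 1093 and 1104 at day 28, with a log2 difference of 0.66 (SE 0.16, adjusted p = 0.136). In all 3 the groups did not overlap, day 3 replicate 1 was lowest, and day 3 replicate 3 lay closest to day 28. For Kcnf1 that gap was small, 1561 against 1624 in the lowest day 28 library. Against day 3 replicate 3 alone, their log2 differences were 0.34, 0.26 and 0.31. Kcns1 (log2 0.41, adjusted p = 0.562) and Kcns3 (log2 -0.15, adjusted p = 0.862) had overlapping groups, and Kcns1 was low in day 3 replicate 1 only, at 111 against 224 or more elsewhere.

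Both Kv7 members stood higher at day 28. Kv7 channels carry the M-current, a slow brake on repeated firing that is closed by muscarinic receptors. Kcnq3 had 2288, 1886 and 2508 normalized counts at day 3 and 2934, 3568 and 3188 at day 28, with separate groups and a log2 difference of 0.54 (SE 0.12, adjusted p = 0.126). Kcnq5 had 1089, 1318 and 1604 normalized counts at day 3 and 1922, 1813 and 1919 at day 28, again with separate groups and day 3 replicate 3 the highest of its group, at a log2 difference of 0.51 (SE 0.14, adjusted p = 0.161). Neither passed with all 6 libraries, and both passed without day 3 replicate 3 (limma adjusted p = 0.0343 and 0.0217). Against day 3 replicate 3 alone their log2 differences were 0.36 and 0.23, with limma adjusted p of 0.353 and 0.415.

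The Kv1 genes were split in direction. Kv1 channels open at low voltages and sit along axons, where they limit the number of spikes. Kcna2, an abundant axonal subunit, had 6490.4, 6182 and 6052 normalized counts at day 3 and 5190.2, 5368 and 5565 at day 28. Its groups did not overlap, with day 28 below day 3, at a log2 difference of -0.22 (SE 0.08, adjusted p = 0.281). Its neighbour on the chromosome with no other coding gene between them, Kcna3, best known from T cells and microglia, lay the other way with 82.4, 73.0 and 46.2 normalized counts at day 3 and 96.8, 146 and 97.6 at day 28. Its lowest library was day 3 replicate 3 and its highest day 28 replicate 2, at a log2 difference of 0.76 (SE 0.29, adjusted p = 0.307), or 1.25 against day 3 replicate 3 alone.

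Kcna4, a subunit of fast inactivating currents, had 336, 455 and 486 normalized counts at day 3 and 629, 525 and 618 at day 28, with separate groups and a log2 difference of 0.48 (SE 0.16, adjusted p = 0.236), or 0.28 against day 3 replicate 3 alone. Kcna5 was among the 4 members with the widest range over the 6 libraries, with 75.1, 117 and 128 normalized counts at day 3 and 209.6, 128 and 101 at day 28. Its extremes were day 3 replicate 1 and day 28 replicate 1, and the groups overlapped, at a log2 difference of 0.42 (SE 0.31, adjusted p = 0.602). Kcna1 (log2 -0.19) and Kcna6 (log2 -0.09) had overlapping groups as well. Of the exonic bases of Kcna6, 39.6% overlap an antisense gene that had at most 86 reads in a library, and reads of that gene may be part of its value.

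Kv3 genes leaned lower at day 28. Kv3 channels open at high voltages and close fast, which allows cells such as parvalbumin interneurons and cerebellar neurons to fire at high rates. Kcnc4 had 1176, 1102 and 1239 normalized counts at day 3 and 838, 966 and 903 at day 28, with separate groups and a log2 difference of -0.38 (SE 0.10, adjusted p = 0.159). Kcnc1 had 5084, 4124 and 3147 normalized counts at day 3 and 3017, 3058 and 3260.5 at day 28. Day 3 replicates 1 and 2 were the highest, and day 3 replicate 3 lay among the day 28 libraries, so the groups overlapped, at a log2 difference of -0.38 (SE 0.16, adjusted p = 0.341). Without day 3 replicate 3 Kcnc1 was called lower (limma adjusted p = 0.0356). Kcnc2 (log2 0.17) varied within both groups, by 1.70-fold at day 3 and by 1.84-fold at day 28.

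Of the 3 Kv4 genes and the 4 genes of KChIP proteins, which bind Kv4 channels, 1 had separate groups. Kv4 channels carry the fast A-type current of dendrites. Kcnd2, the Kv4 gene of highest mean, had 2254, 2248 and 1731 normalized counts at day 3 and 2147, 2104 and 2164 at day 28. The day 28 libraries lay within the range of day 3, at a log2 difference of 0.05 (SE 0.11, adjusted p = 0.882). Kcnd1 (log2 -0.09) and Kcnd3 (log2 0.15) also overlapped. Among their partners Kcnip2, which encodes KChIP2, had 1141, 1481 and 2023 normalized counts at day 3 and 2292, 2138 and 2179 at day 28. Of its day 3 libraries, replicate 3 lay close to day 28, and the log2 difference was 0.55 (SE 0.18, adjusted p = 0.236). Against day 3 replicate 3 alone it was 0.12. Kcnip1 (log2 -0.15), Kcnip3 (log2 -0.07) and Kcnip4 (log2 -0.04) had overlapping groups.

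Of the Kv beta subunits, which bind Kv1 channels inside the cell, only Kcnab1 had separate groups. It had 1551, 1728 and 1851 normalized counts at day 3 and 2046, 2127 and 2326 at day 28, at a log2 difference of 0.34 (SE 0.10, adjusted p = 0.188), or 0.23 against day 3 replicate 3 alone. Kcnab2 had a log2 difference of -0.10 and Kcnab3 of -0.04. Kcnab2 had the highest level per length of the 40, with 1115 normalized counts per kb of exonic sequence as the mean of 6 libraries.

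The calcium-gated members differed in direction. Kcnma1, the pore of the BK channel, which opens on both voltage and calcium, had 3644, 3379 and 3902 normalized counts at day 3 and 4416, 4476 and 4753 at day 28. Its groups were separate and narrow, at a log2 difference of 0.32 (SE 0.09, adjusted p = 0.164). Kcnn2, which encodes an SK channel (identifier ENSMUSG00000054477), was the member with the largest difference downward. It had 885, 1105 and 1027 normalized counts at day 3 and 615, 619 and 681 at day 28. All day 28 libraries lay below all day 3 libraries, at a log2 difference of -0.65 (SE 0.11, adjusted p = 0.0736). It was called without day 3 replicate 1 (log2 -0.74) and without day 3 replicate 3 (log2 -0.63). In the other fits that left out a library it missed the threshold, with limma adjusted p up to 0.382. Against day 3 replicate 3 alone the log2 difference was -0.69. With the granule cell covariate it was -0.64, and the gene was not called. The part of brain region in this difference was not tested. The SK genes Kcnn1 (log2 0.17) and Kcnn3 (log2 0.24) overlapped between groups.

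The sodium-activated channel genes also parted. Kcnt2 had 211, 171 and 268 normalized counts at day 3 and 343, 321 and 340.3 at day 28, with separate groups and a log2 difference of 0.65 (SE 0.18, adjusted p = 0.169). Against day 3 replicate 3 alone it was 0.32, and with the granule cell covariate 0.46. Kcnt1 (log2 -0.13) had overlapping groups and a single high library, day 3 replicate 1 at 3440.3 against 1828 and 1648 in the others of its group.

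**Figure D3:**
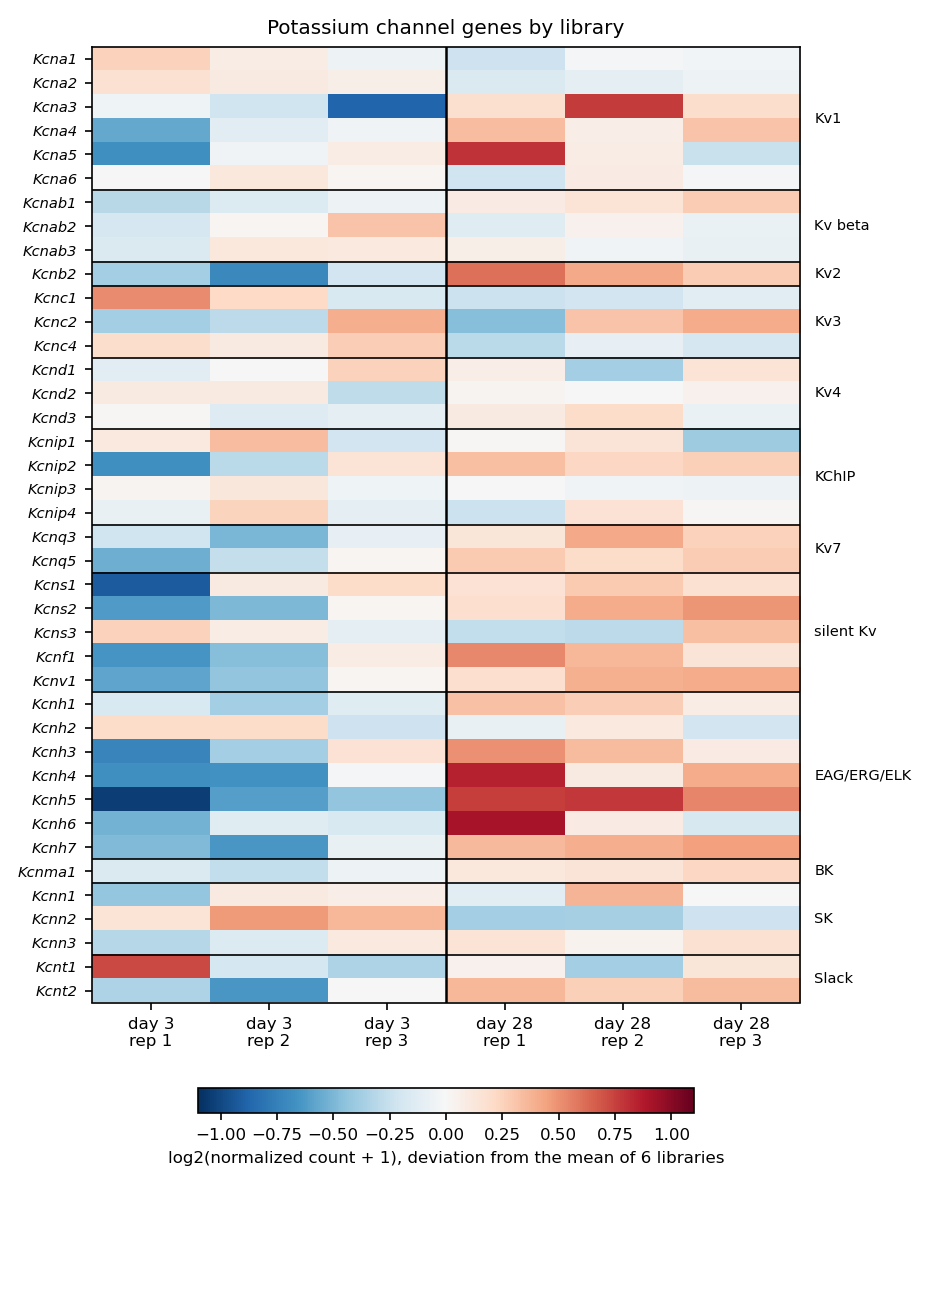
Deviation of log2(normalized count + 1) of each of the 40 genes (rows, by subfamily) from its mean over the 6 libraries (columns). Blue in day 3 replicates 1 and 2 and red at day 28 recur among the Kcnh, silent Kv and Kv7 genes, except Kcnh2, Kcnh6, Kcns1 and Kcns3.

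The spread between libraries was wider at day 3. The median SD of the 40 genes on the log2 scale was 0.25 at day 3 and 0.14 at day 28, against 0.24 and 0.17 over all genes tested, and it was larger at day 3 in 30 of the 40 and in 10900 of all 16162. Day 3 replicate 3 was the highest of its group in 15 of the 16 genes whose day 28 libraries all lay above day 3. Kcna3 was the exception. Among all 40 that library was the highest of its group in 23, and the share over all genes tested was not counted. Over the 6 libraries, the mean log2 deviations of the Kcnh genes were -0.49, -0.37 and -0.13 in the day 3 libraries against 0.52, 0.30 and 0.17 in those of day 28. Those of the silent subunits were -0.50, -0.24 and 0.04 in the day 3 libraries against 0.16, 0.23 and 0.31 in those of day 28.

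Marker lists of brain regions and cell types varied between libraries, some with separate groups and some without. The 9 granule cell markers deviated on average by 3.14, 3.00 and -1.86 in the day 3 libraries against -2.49, -2.49 and 0.71 in those of day 28. The 8 Purkinje cell markers summed to 9959 to 24903 normalized counts at day 3 and 11768 to 14340 at day 28, with Pcp2 at 0 reads in day 28 replicate 2. The 9 hindbrain and spinal markers summed to 128 to 1567 at day 3 and 11 to 30 at day 28, with Hoxa4, Hoxa5, Hoxb4 and Hoxc4 at 0 reads in every day 28 library. The 12 striatal markers, none at 0, summed to 18541 to 26771 at day 3 and 32833 to 40369 at day 28, with mean deviations of -0.66, -0.46 and -0.02 and of 0.60, 0.25 and 0.30. The 6 neuroblast and olfactory bulb markers, none at 0, had a mean log2 deviation of -1.16, -0.62 and -0.08 in the day 3 libraries against 1.16, 0.66 and 0.03 in those of day 28. The 6 oligodendrocyte markers, none at 0, summed to 105259 to 125692 normalized counts at day 3 and 71124 to 88479 at day 28, without overlap. The 8 cortical excitatory markers, none at 0, deviated on average by -0.30, -0.09 and 0.16 in the day 3 libraries against -0.02, 0.17 and 0.09 in those of day 28. Thalamus markers deviated by -0.06, 0.12 and 0.29 against -0.96, 0.25 and 0.37, and hippocampus markers by -0.14, 0.31 and 0.26 against -0.51, -0.02 and 0.10. Inhibitory neuron markers deviated by -0.28, 0.15 and 0.13 against -0.06, 0.05 and 0.02. In the cortical, thalamus, hippocampus and inhibitory lists the groups overlapped.

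Of these lists only the granule cell markers entered a fit of the channel genes. With that level as a covariate the median log2 difference of the 40 was 0.17 (-0.007 over all genes tested), with 28 positive. By limma 0 of the 40 were called, beside 0.0124% of all genes, and 14 had an unadjusted p under 0.05. Without day 3 replicates 1 and 2 the median of the 40 was 0.16 (-0.008 over all genes tested), with 30 positive. The shares of all genes that were positive or had an unadjusted p under 0.05 were not counted in these fits. The part of the other lists was not tested.

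**Figure D4:**
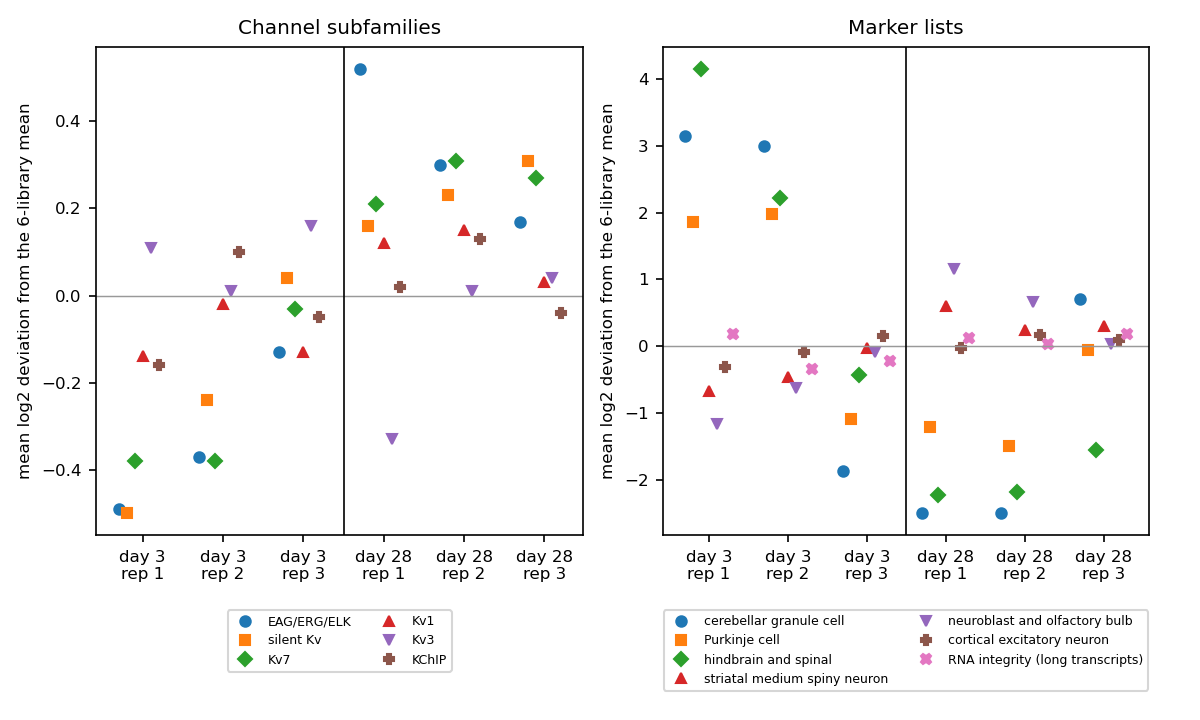
Mean log2 deviation from the 6-library mean of 6 channel subfamilies (left) and of 7 marker lists (right, on its own scale) in each library. The Kcnh and silent Kv genes are lowest in day 3 replicates 1 and 2, where the cerebellar and hindbrain markers are highest and the striatal markers lowest.

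The mean deviations of 17 long transcripts, listed as a sign of RNA quality, were 0.19, -0.34 and -0.21 in the day 3 libraries against 0.13, 0.04 and 0.18 in those of day 28. Of the 40 genes, 5 have a longest transcript of at least 10 kb. Of these, 4 (Kcnb2, Kcnq3, Kcnh7 and Kcnma1) had positive differences, against 48.6% of all genes tested, while Kcna2 had a negative one. Day 3 replicate 1, the library highest in long transcripts, was also the lowest for the Kcnh and silent Kv genes by mean deviation. The part of RNA quality was not tested.

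Levels per length placed the genes over a wide range. On the scale of normalized counts per kb, the mean of 6 libraries was highest for Kcnab2 and then Kcnip2, whether counted per kb of all exons (1115 and 540) or of the longest GENCODE M21 transcript (1586 and 602). It was lowest for Kcnh6, Kcns3 and Kcnb2, at 13.5, 19.0 and 21.7 per kb of exons. Kcna2 was the highest Kv1 gene (488 per kb of exons), ahead of Kcna1 (265) and Kcna6 (206), and Kcna3 (47.5) and Kcna5 (44.2) did not differ beyond their spread. Kcnh5 stood at 63.7, far below Kcnh3 at 329, so the gene with the largest difference was not among the highest of its subfamily. Transcript ends used in brain may differ from the annotation, which limits these levels.

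**Figure D5:**
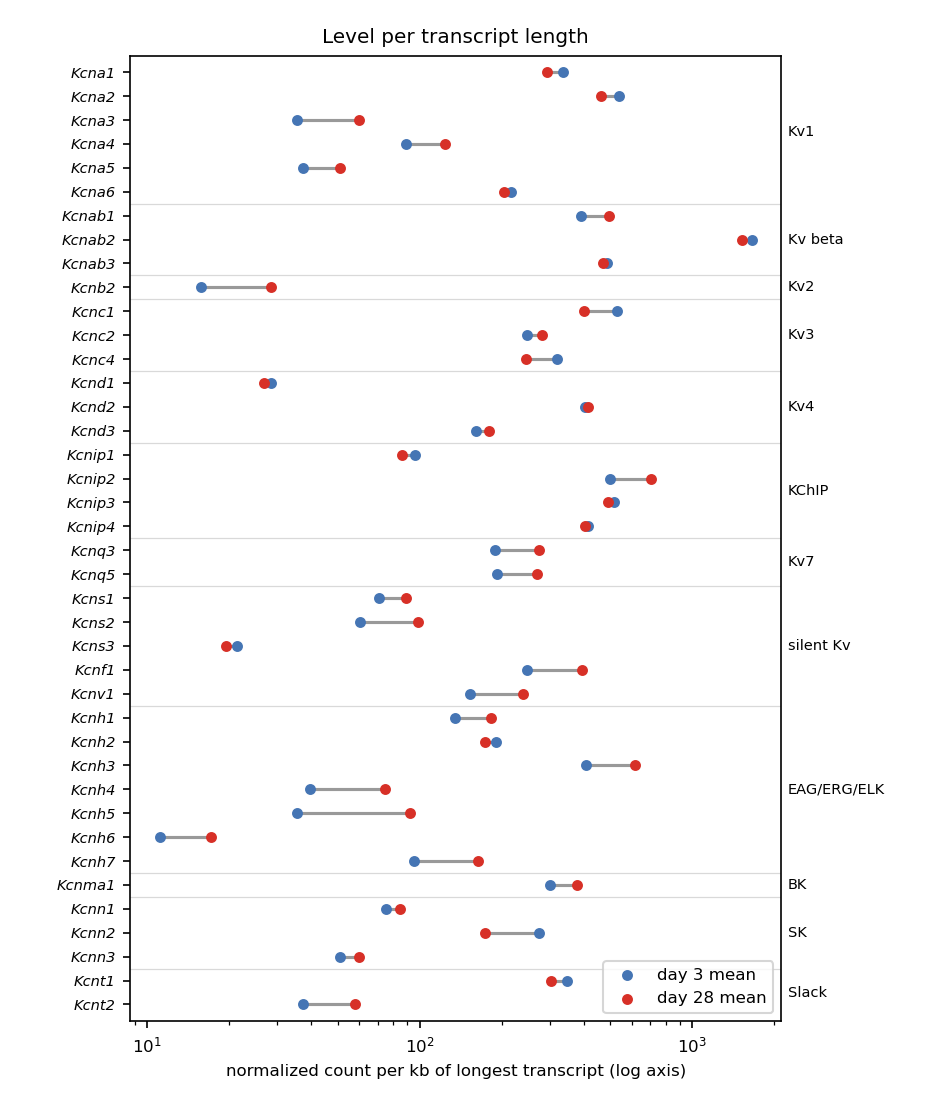
Mean normalized count per kb of the longest transcript (log x axis) at day 3 and day 28 for the 40 genes. Kcnab2 lies highest, and the distance between the day 3 and day 28 points is widest for Kcnh5.

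Further genes of these channels had no calls. Of 33 further Kv and calcium-gated subunits and partner proteins, 32 had a row and 19 passed the filter. None of the 19 was called by limma, with 9 positive, 10 negative and a median log2 difference of -0.09. At an unadjusted p under 0.05 there were 4 of the 19 higher and 3 lower, against 6.98% and 6.39% of all genes tested. The one of smallest p was Lrrc55, a BK channel partner protein, with 240.0, 325 and 304 normalized counts at day 3 and 762, 635 and 458 at day 28. All day 28 libraries lay above day 3 at a log2 difference of 1.07 (SE 0.20, adjusted p = 0.0823).

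The count of calls depended on single libraries. It was 14 of the 40 without day 3 replicate 3, of which 12 were higher and 2 lower, beside 2.01% and 1.84% of all genes tested. The 12 were Kcnh3, Kcnh4, Kcnh5, Kcnh7, Kcns2, Kcnf1, Kcnv1, Kcnb2, Kcnq3, Kcnq5, Kcnip2 and Kcnt2, and the 2 lower were Kcnc1 and Kcnn2. It was 2 without day 3 replicate 1 (Kcnh5 and Kcnn2), beside 0.192% of all genes. It was 0 by limma without day 3 replicate 2 (0.0124% of all genes called) or without day 28 replicate 1 (0.00619%), 2 or 3 (0.0124% each). In these fits 17 to 19 of the 40 had an unadjusted p under 0.05, and the share of all genes at that level was not counted.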

How the data were processed

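The deposited table holds log2 values. From the values themselves, each was log2(read count divided by a library size factor, plus 1), and whole reads were recovered for all values within 0.001 reads. The aligner, counter and annotation are not given in the sources used here; the submitters' processing notes name the build GRCm39. Libraries were stranded and made from 1 µg of RNA, per the labels' protocols. Symbols were matched by gene identifier to GENCODE M21, which names 52073 of the 56748.

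The 6-library mean of normalized counts had to reach 10 for a gene to be tested, which left 16162 of 56748. The test was limma 3.58.1 (R 4.3.3) with an intensity trend on log2(normalized count + 1), two-sided, with Benjamini-Hochberg adjustment over all genes tested, a threshold of 0.05 and 4 residual degrees of freedom. With a pseudocount of 1, fold changes of low genes are understated. Values in all libraries were printed for members past the threshold, for those without overlap at an unadjusted p under 0.05, for the highest gene of a subfamily with neither, and for the 4 of widest range. The fit was tested on simulated data. The members, gene lists and tests were chosen with earlier results of these data known. Alternatives covered the pseudocount, filters, scaling, variance model, recovered reads, replicate number, cerebellar marker level and each library left out. No coordinates of the files' build were used.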

Additional observations from a re-analysis of the deposited data

How the results depend on the processing

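As reported, 31 of all genes tested and 1 of the 40 channel genes were called. Without a low filter these counts were 68 and 2 (Kcnh5 and Kcnh7), with a robust variance 74 and 3, with library weights 69 and 3 (both with Kcnh5, Kcnh7 and Kcnn2), and at an adjusted p under 0.1 they were 152 and 4 (with Kcnb2 as well). Median centring gave 20 genes, with Kcnh5 still called. Without the intensity trend there were 3 and 0 (17 channel genes at an unadjusted p under 0.05), with limma-voom on the recovered reads 0 and 0 (21), and with the replicate block 0 and 0 (21). The deviations of same-numbered libraries from their group means correlated at 0.034, 0.131 and -0.062. Day 3 replicate 1 correlated best with day 28 replicate 3, at 0.16. With 3 libraries in a group the deviations depend on each other, so these values cannot decide whether the number pairs libraries. With the granule cell covariate there were 2 and 0 (14) and a median log2 difference of 0.171. Without day 3 replicates 1 and 2, an alternative chosen after seeing the data, the median was 0.161. The counts at an unadjusted p have no share of all genes beside them here, as it was not counted in these fits. Leaving out each library in turn gave 1 to 623 genes, 0 to 14 channel genes and medians of 0.192 to 0.388. The cause of these shifts was not tested. The log2 difference of Kcnh5 ran from 1.13 to 1.51 over its alternatives, with limma adjusted p from 0.00901 to 0.254. The log2 difference of each of 19 named genes was set beside the main fit under each of 19 alternatives. Of these gene-by-alternative results 0 reversed, 335 stayed the same, 9 lost the threshold and 17 newly passed it. As Kcnh5 alone was called in the main fit, its call was lost in 9 of its 19 alternatives. The 5 channel genes with a mean below 200 normalized counts, Kcnh6 the lowest, have the fewest reads behind their values.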

Other observations

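Other potassium channel families had no calls. Inward rectifiers hold the resting potential, and 15 of the 17 listed passed the filter. Of the 15, 8 were positive and 7 negative, with a median log2 difference of 0.02 and 0 called by limma. At an unadjusted p under 0.05 there were 2 of the 15 higher and 0 lower, against 6.98% and 6.39% of all genes tested. The one of smallest p, Kcnj4, had 731, 906 and 1189 normalized counts at day 3 and 1821, 1609.9 and 1341 at day 28, at a log2 difference of 0.77 (SE 0.18, adjusted p = 0.131). Of the 14 listed K2P leak channel genes, which carry background potassium current, 10 passed, with 5 positive, 5 negative, a median of -0.18 and 0 called by limma. At an unadjusted p under 0.05 there were 1 of the 10 higher and 3 lower, against 6.98% and 6.39% of all genes tested. The one of smallest p, Kcnk1, had 1149, 1269 and 1037 normalized counts at day 3 and 822, 917 and 857 at day 28, at a log2 difference of -0.41 (SE 0.11, adjusted p = 0.159).

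No direction was established for the neighbouring genes Kcna1, Kcna5 and Kcna6. In RefSeq they follow each other without another coding gene between them, with Kcna1 in the middle. Their log2 differences were -0.19 (SE 0.111), 0.42 (SE 0.313) and -0.09 (SE 0.105), with limma adjusted p of 0.512, 0.602 and 0.747. The groups overlapped in each.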
